A study of Mus musculus with 12 samples.

Results

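TEPP-46, a small-molecule activator of the glycolytic enzyme PKM2, was compared with its vehicle in cytokine-stimulated mouse natural killer (NK) cells. The 6 libraries of this drug experiment, 3 with TEPP-46 and 3 with vehicle, were taken by their group labels from the 12 samples of the series. Of 11706 genes listed, 10717 averaged 1 RPKM or more in these 6 libraries and were tested. RPKM is a read number scaled by gene length and by the mapped reads of the library, and every difference below is on the log2(RPKM + 1) scale, TEPP-46 minus vehicle, which understates the difference of low genes.

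The cells came from spleens of C57BL6 mice labelled WT. Splenocytes spent 6 days in culture with IL-15 at 10 ng/mL, NK cells were purified from them with magnetic beads, and these were stimulated for 18 hours with IL-2 at 330 U/mL and IL-12 at 10 ng/mL. Both groups had this expansion and stimulation, so all 6 libraries describe cytokine-activated cultured cells and not resting NK cells. The TEPP-46 libraries had TEPP-46 added, at 50 µM in the design text and 50 mM in the sample labels. The vehicle libraries had DMSO at 0.1% in the labels, where the design text names PBS. The labels call the samples biological replicates and do not say whether they came from separate animals, so a p-value here reflects how far these libraries vary, which may be technical. The remaining groups of the series, PKM2 KO (Ncr1-Cre with floxed PKM2 alleles) and PKM2 WT (Ncr1-Cre alone), enter a single contrast near the end.

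NK cells kill target cells by releasing granules of perforin, which opens membranes, and granzymes, the serine proteases that then enter the target. IL-2 and IL-12 drive both the granule program and secretion of interferon-γ. PKM2 is an isoform of pyruvate kinase, which catalyses the last step of glycolysis, and it exists as a tetramer with high activity or as smaller forms with low activity. TEPP-46 favours the tetramer. Metallothioneins are small cysteine-rich proteins that bind zinc and copper, and their genes are switched on by the zinc-sensing factor MTF1 through short promoter sequences called metal response elements.

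The promoters of the genes with the clearest differences are shown here because they share short motifs within each family. Each window runs from 250 bases before to 50 bases after the RefSeq gene start, in GRCm38.p6, printed 5′ to 3′ on the gene's strand. In the metallothionein genes and the zinc exporter gene Slc30a1, capitals mark metal response elements, searched on both strands as TGCACNC or TGCGCNC. Mt1 held 3 matches, Mt2 4 and Slc30a1 2, and 25.7% of 32851 promoter windows held at least 1.

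Mt1, chr8:94178839-94179138, plus strand: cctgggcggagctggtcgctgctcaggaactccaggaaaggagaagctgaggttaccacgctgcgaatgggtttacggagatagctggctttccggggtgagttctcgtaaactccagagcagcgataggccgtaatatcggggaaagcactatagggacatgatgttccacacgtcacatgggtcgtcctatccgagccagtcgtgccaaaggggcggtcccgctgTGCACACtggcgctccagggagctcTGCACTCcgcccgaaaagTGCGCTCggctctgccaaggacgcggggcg

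Mt2, chr8:94172368-94172667, plus strand: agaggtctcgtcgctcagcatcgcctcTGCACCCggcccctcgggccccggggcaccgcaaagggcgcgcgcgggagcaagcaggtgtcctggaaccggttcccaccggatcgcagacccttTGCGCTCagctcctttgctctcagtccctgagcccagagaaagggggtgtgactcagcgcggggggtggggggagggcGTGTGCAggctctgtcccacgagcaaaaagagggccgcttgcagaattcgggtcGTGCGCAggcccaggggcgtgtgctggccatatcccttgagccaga

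Slc30a1, chr1:191906531-191906830, plus strand: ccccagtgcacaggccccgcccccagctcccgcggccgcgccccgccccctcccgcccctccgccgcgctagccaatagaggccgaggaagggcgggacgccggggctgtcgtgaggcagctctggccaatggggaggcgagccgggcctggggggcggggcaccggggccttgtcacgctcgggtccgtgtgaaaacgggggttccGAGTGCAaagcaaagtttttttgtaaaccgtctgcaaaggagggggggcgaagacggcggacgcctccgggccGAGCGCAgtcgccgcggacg

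In 4 neighbouring granzyme genes on chromosome 14, capitals mark the RUNX motif TGTGGT on either strand. RUNX3 is a transcription factor of the cytotoxic program. Each of the 4 windows held 2 matches, and 16.8% of all windows held at least 1. The 4 windows were 76.3% to 93.4% identical to each other, so their matches are not independent occurrences.

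Gzmd, chr14:56132544-56132843, minus strand: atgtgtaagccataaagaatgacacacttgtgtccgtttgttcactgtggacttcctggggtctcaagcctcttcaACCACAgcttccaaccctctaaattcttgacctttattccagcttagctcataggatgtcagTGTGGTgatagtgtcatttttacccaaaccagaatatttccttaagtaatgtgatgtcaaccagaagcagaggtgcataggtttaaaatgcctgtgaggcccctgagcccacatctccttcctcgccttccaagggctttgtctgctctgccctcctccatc

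Gzme, chr14:56120576-56120875, minus strand: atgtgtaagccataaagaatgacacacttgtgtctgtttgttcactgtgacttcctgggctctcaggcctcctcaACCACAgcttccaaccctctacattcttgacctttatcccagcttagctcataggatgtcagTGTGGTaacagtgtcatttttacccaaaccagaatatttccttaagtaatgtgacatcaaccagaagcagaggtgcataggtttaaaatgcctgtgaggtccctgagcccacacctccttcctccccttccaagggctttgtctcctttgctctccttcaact

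Gzmf, chr14:56211358-56211657, minus strand: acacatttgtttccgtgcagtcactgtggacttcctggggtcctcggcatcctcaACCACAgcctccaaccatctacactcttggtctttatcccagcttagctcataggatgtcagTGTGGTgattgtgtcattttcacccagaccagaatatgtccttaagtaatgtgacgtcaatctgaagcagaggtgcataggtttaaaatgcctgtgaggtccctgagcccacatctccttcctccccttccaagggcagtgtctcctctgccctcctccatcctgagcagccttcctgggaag

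Gzmg, chr14:56159530-56159829, minus strand: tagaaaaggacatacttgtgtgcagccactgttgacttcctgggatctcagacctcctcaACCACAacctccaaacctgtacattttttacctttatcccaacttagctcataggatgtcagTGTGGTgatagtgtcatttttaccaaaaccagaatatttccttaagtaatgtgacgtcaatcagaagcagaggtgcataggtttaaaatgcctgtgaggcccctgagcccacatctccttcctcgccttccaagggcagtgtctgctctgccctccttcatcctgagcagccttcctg

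Capitals in the window of Asns, the asparagine synthetase gene, mark the C/EBP-ATF response element TGATGNAA, the type of site that the amino acid stress factor ATF4 binds. It occurred once there, and 3.97% of all windows held it.

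Asns, chr6:7693160-7693459, minus strand: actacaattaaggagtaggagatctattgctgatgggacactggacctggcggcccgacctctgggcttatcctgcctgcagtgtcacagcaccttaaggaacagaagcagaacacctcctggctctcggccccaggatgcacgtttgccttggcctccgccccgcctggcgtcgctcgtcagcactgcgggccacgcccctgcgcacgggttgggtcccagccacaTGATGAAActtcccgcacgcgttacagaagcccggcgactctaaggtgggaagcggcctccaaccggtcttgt

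These matches describe letters in the windows and were not tested as binding sites. Among the granzyme and perforin genes of the expression table, 8 of 9 windows held the RUNX motif. Of 7 metallothionein and zinc transport genes with a window, 4 held the metal response element. Of 11 genes of the ATF4 amino acid response with a window, 3 held the C/EBP-ATF response element.

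The libraries were of NK cells by their markers. All 15 NK marker genes on the list were expressed, led by Gzmb at a mean of 15230 RPKM. Their summed level was 22480 to 23180 RPKM with TEPP-46, against 19960 to 21510 RPKM with vehicle. As a share of summed RPKM the groups overlapped, at 1.945% to 2.191% with TEPP-46 and 1.614% to 2.103% with vehicle. The T cell genes Cd3e, Cd4 and Cd8a were not analysed here. The non-coding RNAs Rn7s1, Rn7s2 and Rn7sk, which carry no poly(A) tail, took 34.2% to 41.0% of summed RPKM with TEPP-46 and 32.4% to 42.0% with vehicle, and the sources name both a poly(A)-selecting kit and total RNA. The median tested gene stood at 14.6 to 15.3 RPKM with TEPP-46 and at 14.8 to 15.3 RPKM with vehicle. Read depth is unknown, since the files give no counts.

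Across all genes the groups were close. Without pairing, 0 of 10717 genes passed an adjusted p of 0.05 in either direction (limma with Benjamini-Hochberg adjustment, 0.0% called), and 473 higher and 484 lower genes had an unadjusted p under 0.05, which is 4.41% and 4.52% of the genes. With the replicate number as a block, 6 genes rose and 0 fell (0.056% and 0.0% called), and 918 higher and 1676 lower genes, or 8.57% and 15.6%, had an unadjusted p under 0.05. The 6 genes were Mt1, Gzme, Gzmd, Gzmf, Sult2b1 and Avil, and no source says that same-numbered libraries belong together. Among the 9514 protein-coding genes alone, tested without the block, Mt1, Mt2 and Gzmf rose and 0 genes fell (0.0315% and 0.0% called), and 456 higher and 469 lower genes, or 4.79% and 4.93%, had an unadjusted p under 0.05. The median difference over all genes was -0.02, and 42.9% of genes had a positive difference. This tilt depended on the scaling. Under quantile normalization the median was 0.0018, with 5434 of 10717 genes positive. Under median ratio scaling it was -0.0069, with 5105 positive. On the log2(RPKM + 1) scale, not in mean RPKM, a difference of 1.5-fold or more was reached by 16 protein-coding genes upward and 5 downward. In 11 and 2 of them the libraries of the groups did not overlap.

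**Figure D1:**
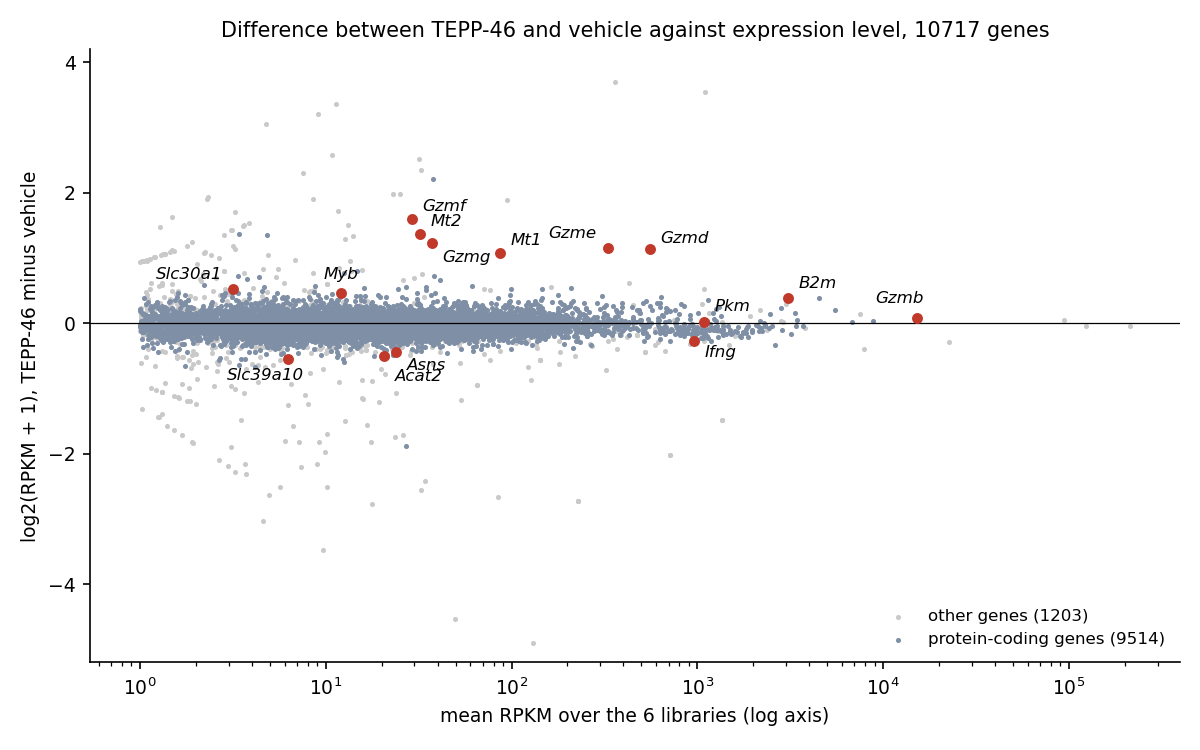
Each point is a gene, placed by its mean RPKM over the 6 libraries (log axis) and by its difference in log2(RPKM + 1), TEPP-46 minus vehicle. Most protein-coding genes lie close to 0 at every level, while Mt1, Mt2 and the granzymes Gzmd, Gzme, Gzmf and Gzmg stand above them, and most of the points farthest from 0 are genes that do not code for protein.

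The metallothionein genes Mt1 and Mt2 had the smallest unpaired p-values of the experiment. Mt1 was at 112, 126 and 116 RPKM with TEPP-46, against 52.8, 61.0 and 52.4 RPKM with vehicle. The lowest TEPP-46 library was far above the highest vehicle library. The difference of Mt1 was 1.08 ± 0.08 (standard error, n = 3 each), with an adjusted p of 0.0802 without pairing and 0.011 with the block. Mt2 was at 37.8, 51.2 and 51.7 RPKM with TEPP-46, against 16.8, 17.5 and 18.1 RPKM with vehicle, so its groups did not overlap either. Its difference was 1.36 ± 0.13, with an adjusted p of 0.141 without pairing and 0.0645 with the block. The mean of Mt1 was 2.13-fold and that of Mt2 2.69-fold the vehicle mean.

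The zinc transporters that met the naming rule pointed in opposite directions. Slc30a1, which exports zinc from the cell and is a known MTF1 target, was at 3.74, 4.43 and 3.62 RPKM with TEPP-46 and at 2.36, 2.75 and 2.22 RPKM with vehicle. Its differences in the 3 same-numbered pairs were 0.50, 0.53 and 0.52, and its adjusted p was 0.344 without pairing and 0.0808 with the block. Slc39a10, a zinc importer, was at 5.11, 4.43 and 4.97 RPKM with TEPP-46 and at 7.01, 6.59 and 9.31 RPKM with vehicle. Its difference was -0.55 ± 0.13 (adjusted p = 0.35, and 0.0826 with the block). The importer Slc39a14 was lower by little, at 20.7 ± 0.584 RPKM with TEPP-46 and 22.1 ± 0.755 RPKM with vehicle (SD, n = 3 each). Of 9 genes tested on the list of metallothioneins and zinc transport, 3 lay above vehicle in every library and 2 below, against 7.68% and 7.97% of all genes. The median of that list was -0.01, and it turned positive under quantile normalization (0.01) and median ratio scaling (0.01).

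**Figure D2:**
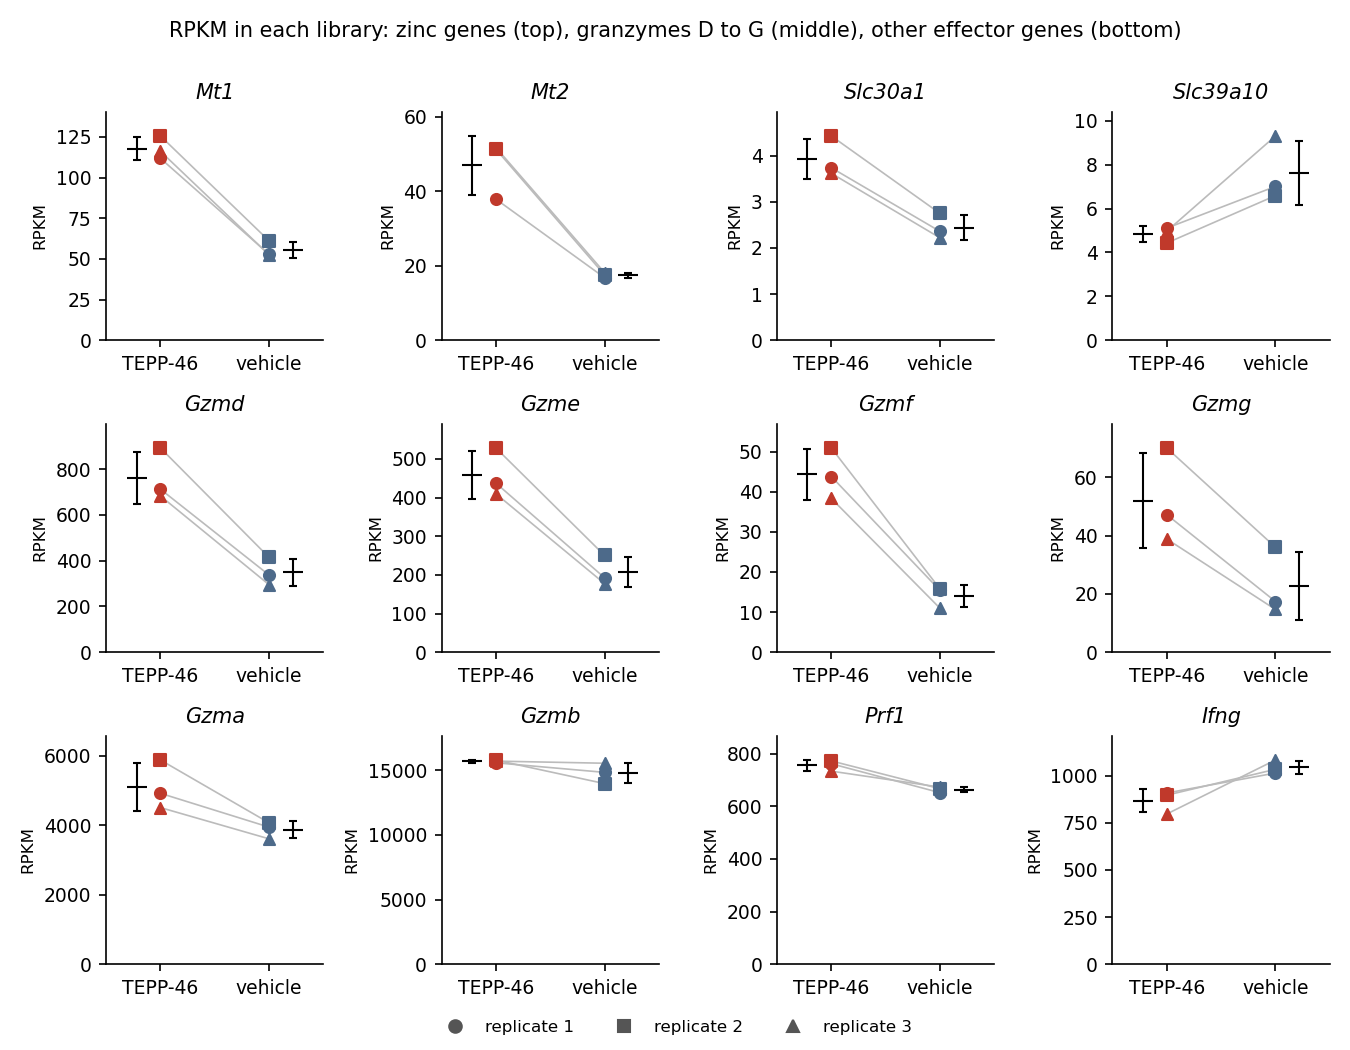
RPKM of 12 genes in each library, TEPP-46 on the left and vehicle on the right, with a marker for each replicate number, a grey line between same-numbered libraries, and the mean with SD of 3 libraries in black. The groups are apart in every panel, widely for Mt1, Mt2, Gzmd, Gzme and Gzmf and narrowly for Gzmg and Gzmb, and Slc39a10 and Ifng are lower with TEPP-46.

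Gzmd, Gzme, Gzmf and Gzmg, whose promoters are shown above, were higher by 1.13 to 1.60 on the log2 scale, and the first 3 passed with the block. Gzmd was at 712, 893 and 683 RPKM with TEPP-46 and at 337, 414 and 295 RPKM with vehicle. Its difference was 1.13 ± 0.16 (adjusted p = 0.269, and 0.011 with the block). Gzme was at 437, 528 and 409.8 RPKM with TEPP-46, against 192, 250.2 and 177 RPKM with vehicle, a difference of 1.15 ± 0.15 (adjusted p = 0.266, and 0.011 with the block). Both are proteases of the mouse granzyme cluster whose substrates are less well known than those of granzyme B. In each group replicate 2 had the highest level of both genes, so the spread within groups was shared by the pairs.

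Gzmf, a low-abundance member of the cluster, was at 43.8, 50.9 and 38.3 RPKM with TEPP-46, against 15.4, 15.8 and 10.9 RPKM with vehicle. Its difference of 1.60 ± 0.16 was the largest of the granzymes (adjusted p = 0.165, and 0.0165 with the block). Gzmg was at 47.1, 70.0 and 38.8 RPKM with TEPP-46 and at 17.4, 36.0 and 14.6 RPKM with vehicle. The lowest TEPP-46 library of Gzmg was only just above the highest vehicle library, and its difference of 1.23 ± 0.36 had an adjusted p of 0.446, and of 0.0781 with the block. The reading frames of Gzmd and Gzme were 93.3% identical, and the other pairs among these 4 genes were 83.7% to 89.6% identical. Reads could therefore have been split between them by the counting, and each value is uncertain to that extent.

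The abundant granzymes differed less. Gzma was at 4922, 5882 and 4511 RPKM with TEPP-46 and at 3947, 4071 and 3610.1 RPKM with vehicle (difference 0.39 ± 0.11, adjusted p = 0.441). Gzmc was at 2868, 3349 and 2989.8 RPKM with TEPP-46, against 2446, 2693 and 2655 RPKM with vehicle (0.24 ± 0.08, adjusted p = 0.499). Gzmb, which activates caspases in target cells and was the highest of the NK marker genes, was at 15573, 15778 and 15701 RPKM with TEPP-46 and at 14831, 13962 and 15537 RPKM with vehicle. Its interval ran from -0.10 to 0.27. Prf1, which encodes perforin, was at 761, 772 and 733 RPKM with TEPP-46, against 651, 667 and 672 RPKM with vehicle (0.19 ± 0.05, adjusted p = 0.415). Gzmk was near the filter and its groups overlapped, at 1.02 ± 0.0709 RPKM with TEPP-46 and 1.10 ± 0.201 RPKM with vehicle (SD, n = 3 each).

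Of the 9 granzyme and perforin genes tested, 8 lay above vehicle in every TEPP-46 library and 0 below, against 7.68% and 7.97% of all genes. Their median difference was 0.39, against -0.02 over all genes. Of 16 granule genes outside the protease family, 5 lay above vehicle in every library and 0 below, beside the same shares of all genes, with a median of 0.06. Srgn, the proteoglycan that packs granzymes in granules, was at 677, 773 and 657 RPKM with TEPP-46 and at 557, 576 and 555 RPKM with vehicle. Nkg7, needed for granule release, was at 1391, 1513 and 1376 RPKM with TEPP-46 and at 1198, 1208 and 1198 RPKM with vehicle. Serpinb9, the granzyme B inhibitor that protects the killer cell, was at 604 ± 74.0 RPKM with TEPP-46 and 502 ± 30.5 RPKM with vehicle (SD, n = 3 each). These 3 genes passed with neither fit, and their adjusted p lay between 0.366 and 0.544 without pairing.

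Death ligands went both ways, with 3 of 9 tested genes positive and 6 negative. Fasl, the ligand of the death receptor Fas, was at 105, 111 and 110.4 RPKM with TEPP-46, against 84.4, 85.4 and 88.7 RPKM with vehicle (difference 0.34 ± 0.05, adjusted p = 0.344). Of the 9 death ligand genes tested, Fasl alone lay above vehicle in every library, against 7.68% of all genes. In 5 of the 9 all 3 pairs were negative and in 2 positive, against 29.1% and 18.7% of all genes. The median of the 9 was -0.11, which became 0.01 under quantile normalization.

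Interferon-γ, the cytokine NK cells make under IL-12, was at a lower messenger level with TEPP-46, though not past the test. Ifng was at 908, 897 and 797 RPKM with TEPP-46 and at 1014, 1034 and 1083 RPKM with vehicle, with no overlap. Its difference was -0.27 ± 0.07, with a 95% interval of -0.44 to -0.09 and an adjusted p of 0.391, and of 0.116 with the block. Il10, an anti-inflammatory cytokine that activated NK cells also make, was at 34.0, 27.7 and 27.5 RPKM with TEPP-46, against 38.4, 35.7 and 35.0 RPKM with vehicle. The chemokine gene Ccl1 was low and uneven, at 4.34, 1.08 and 4.07 RPKM with TEPP-46 and at 5.08, 4.39 and 5.99 RPKM with vehicle. Tgfb1, which encodes the inhibitory cytokine TGF-β1, went the other way, at 138, 126 and 122 RPKM with TEPP-46 and at 115, 107 and 109 RPKM with vehicle. Of the 14 cytokine and chemokine genes tested, 2 lay above vehicle in every library and 3 below, against 7.68% and 7.97% of all genes. The median was 0.00, and it reached -0.08 without vehicle replicate 2.

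Most receptors of the NK cell surface were at slightly higher levels with TEPP-46, and none passed the test. The Ly49 receptors, encoded by the Klra genes, bind MHC class I molecules, and most of them inhibit the NK cell. All 9 tested had positive differences, between 0.16 and 0.40, with a median of 0.27. In 7 of the 9 every TEPP-46 library was above every vehicle library, against 7.68% of all genes, and in the same number all 3 pairs were positive, against 18.7% of all genes. Klra5 was at 27.9, 30.8 and 29.2 RPKM with TEPP-46, against 21.6, 21.7 and 22.4 RPKM with vehicle. Its difference of 0.40 ± 0.05 had an adjusted p of 0.266, and of 0.0808 with the block.

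Klra8 encodes Ly49H, the activating receptor for a mouse cytomegalovirus protein. It was at 203, 204 and 206 RPKM with TEPP-46 and at 167, 155 and 164 RPKM with vehicle. Klra4, at 272 ± 15.3 RPKM with TEPP-46 and 219 ± 3.60 RPKM with vehicle, and Klra7, at 352 ± 17.2 RPKM with TEPP-46 and 290.3 ± 4.82 RPKM with vehicle, were the most abundant members (SD, n = 3 each). Klra9, Klra3 and Klra1 differed by 0.31, 0.22 and 0.17, and Klra6 and Klra10 overlapped between the groups at levels under 8 RPKM. No Ly49 gene passed with either fit. The Ly49 genes are close copies of each other, so reads may be shared between them.

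The other lectin-like receptors were similar. Of 13 tested genes of the NKG2, CD94, NKR-P1 and KLRG1 group, 7 lay above vehicle in every library and 1 below, against 7.68% and 7.97% of all genes, with a median of 0.19. Klrb1b, an inhibitory NKR-P1 receptor, was at 41.5, 45.1 and 36.1 RPKM with TEPP-46, against 28.6, 30.3 and 26.3 RPKM with vehicle (difference 0.51 ± 0.10, adjusted p = 0.344). Klrg1, a marker of mature NK cells, was at 23.0, 23.6 and 19.9 RPKM with TEPP-46 and at 15.3, 16.7 and 16.4 RPKM with vehicle (0.43 ± 0.08, adjusted p = 0.344). Klrc1 (NKG2A), Klrd1 (CD94) and Klrk1 (NKG2D) differed by 0.27, 0.30 and 0.20.

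Among 21 activating receptors and adaptors, 8 lay above vehicle in every library and 1 below, against 7.68% and 7.97% of all genes, and the median was 0.13. Tyrobp, the adaptor DAP12 that carries the signal of activating Ly49 receptors, was at 889, 1008 and 903 RPKM with TEPP-46 and at 769, 781 and 767 RPKM with vehicle (0.27 ± 0.07, adjusted p = 0.366). Fcer1g and Slamf7 differed by 0.21 and 0.22. Cd160, which binds MHC class I and HVEM, was the member below vehicle in every library, at 13.8, 18.0 and 20.1 RPKM with TEPP-46, against 21.4, 22.5 and 23.4 RPKM with vehicle. Ncr1, the NK-specific receptor NKp46, was at 109, 103 and 134 RPKM with TEPP-46 and at 94.7, 90.5 and 108 RPKM with vehicle. The groups of Ncr1 overlapped, and its difference of 0.23 ± 0.12 had an adjusted p of 0.601.

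Inhibitory checkpoint receptors had a median of 0.22 over 11 genes, with 3 above vehicle in every library and 0 below, against 7.68% and 7.97% of all genes. Cd96 was at 66.2, 71.5 and 68.3 RPKM with TEPP-46, against 55.3, 59.1 and 57.2 RPKM with vehicle, and Havcr2 (TIM-3) differed by 0.26. Of 20 cytokine receptor chains, 7 lay above vehicle in every library and 0 below, beside the same shares of all genes, with a median of 0.14. Ifngr1, a chain of the interferon-γ receptor, was at 230.1, 302 and 216 RPKM with TEPP-46 and at 166, 196 and 151 RPKM with vehicle (0.54 ± 0.15, adjusted p = 0.437). Il2rb, the signalling chain shared by the IL-2 and IL-15 receptors, was at 1349, 1429.9 and 1288 RPKM with TEPP-46, against 1171, 1213 and 1128 RPKM with vehicle. Il18r1 and Il4ra differed by 0.29 and 0.22.

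Antigen-presentation genes were at slightly higher levels too, and again none passed. Of 20 MHC class I presentation genes, 11 lay above vehicle in every library and 0 below, against 7.68% and 7.97% of all genes. In this list 19 had a positive difference, against 42.9% of all genes, and the median was 0.16. B2m, the light chain of all class I molecules, was at 3376, 3457 and 3579 RPKM with TEPP-46 and at 2584, 2603 and 2794 RPKM with vehicle. Its difference of 0.38 ± 0.07 had an adjusted p of 0.344, and of 0.0781 with the block. The heavy chain gene H2-K1 was at 1259, 1355 and 1241 RPKM with TEPP-46, against 982, 1089 and 951 RPKM with vehicle. H2-D1 and H2-T23 differed by 0.29 and 0.22. H2-Q5, annotated as a polymorphic pseudogene and a near copy of other Q-region genes, was at 222, 178 and 182 RPKM with TEPP-46 and at 135, 142 and 118 RPKM with vehicle. Type I interferon-stimulated genes were mixed, with 6 of 26 above vehicle in every library and 3 below, beside the same 7.68% and 7.97%.

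Several regulators of NK identity and survival were among these small differences. Myb, a transcription factor of lymphoid progenitors and proliferating cells, was at 13.7, 14.5 and 14.0 RPKM with TEPP-46, against 9.48, 10.1 and 10.3 RPKM with vehicle (0.46 ± 0.05, adjusted p = 0.266, and 0.0781 with the block). Irf8, which NK cells need for their antiviral expansion, was at 328, 324 and 304 RPKM with TEPP-46 and at 257, 266 and 248 RPKM with vehicle. Id2, the factor that keeps the innate lymphoid fate, and Ets1, which is needed for NK development, differed by 0.26 and 0.27. Batf was lower, at 38.7, 34.1 and 40.2 RPKM with TEPP-46 and at 42.8, 44.8 and 45.9 RPKM with vehicle. Of 25 lineage factors, 7 lay above vehicle in every library and 1 below, against 7.68% and 7.97% of all genes, with a median of 0.08.

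Stat3 was at 104, 104 and 115 RPKM with TEPP-46, against 81.6, 87.9 and 89.2 RPKM with vehicle. Of 15 NF-κB subunits and feedback genes, 7 lay above vehicle in every library and 0 below, against 7.68% and 7.97% of all genes, and the inhibitors Tnfaip3 and Nfkbiz differed by 0.29 and 0.24. Bcl2, an anti-death gene, was at 54.0, 55.9 and 54.3 RPKM with TEPP-46 and at 45.7, 44.6 and 41.6 RPKM with vehicle. Bcl2l11, which encodes the pro-death protein BIM, was also higher, at 42.4, 49.2 and 36.5 RPKM with TEPP-46, against 31.5, 35.7 and 27.0 RPKM with vehicle. The BCL2 family list as a whole went both ways, with 7 of 16 genes positive and 9 negative, and a median of -0.03. In it 4 genes lay above vehicle in every library and 0 below, against 7.68% and 7.97% of all genes.

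**Figure D3:**
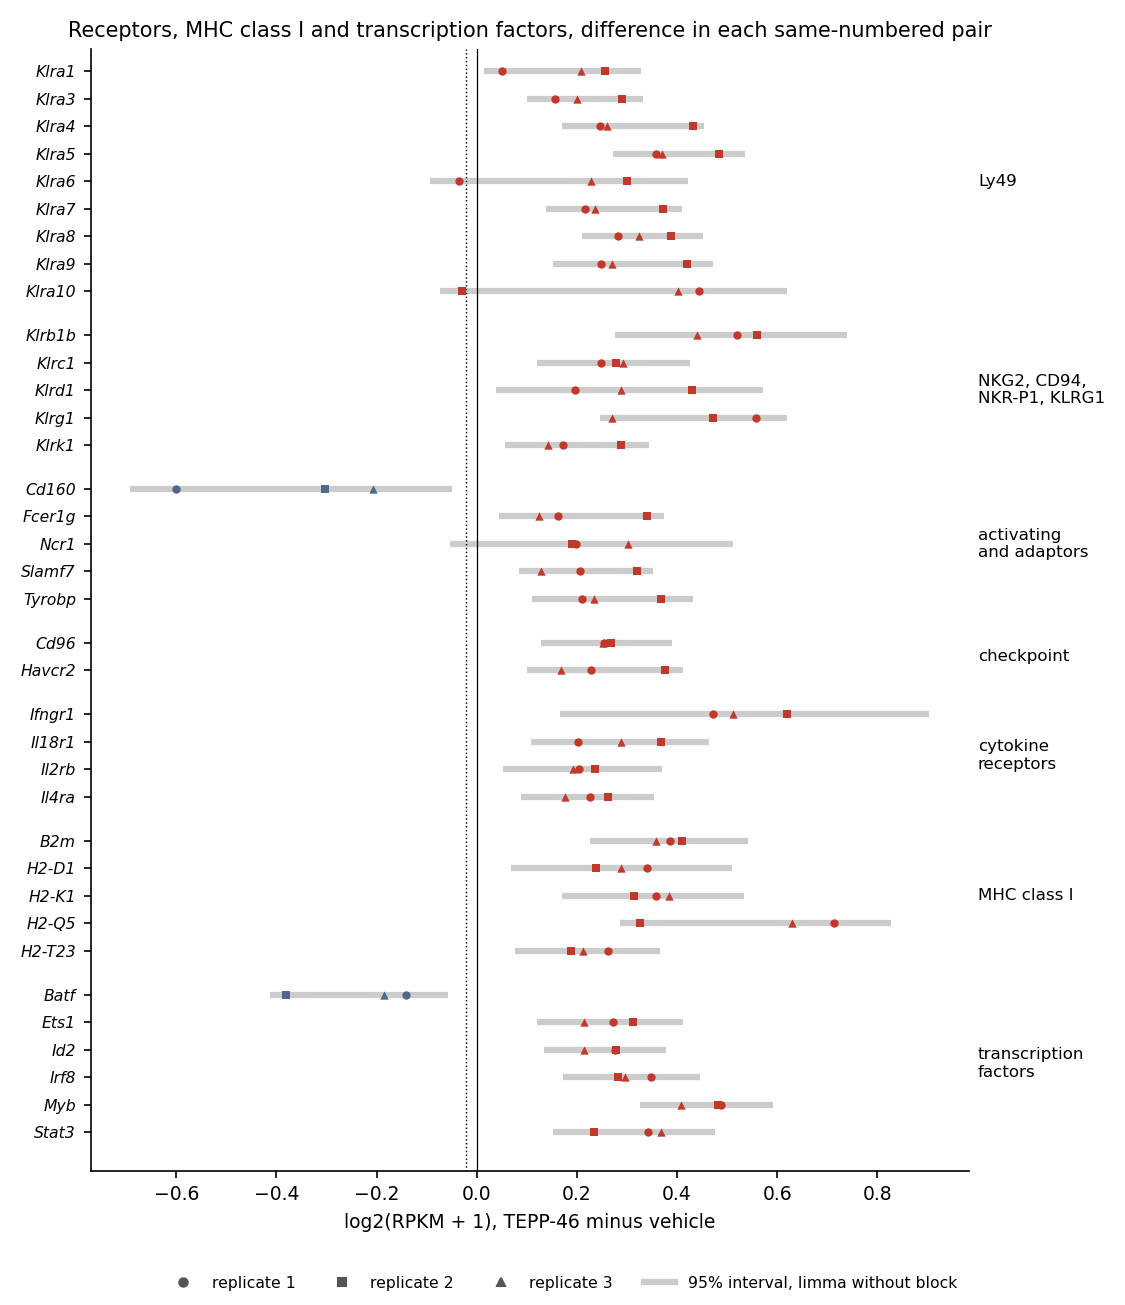
Differences in log2(RPKM + 1), TEPP-46 minus vehicle, in each of the 3 same-numbered pairs (markers) with the 95% interval of the unpaired fit (grey bars); red genes have a positive and blue genes a negative difference, and the dotted line is the median of all genes. Most intervals lie above 0, Cd160 and Batf are negative in all 3 pairs, and Klra6 and Klra10 each have a pair below 0.

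Markers of other cells were read beside the NK receptors. In bulk RNA, a shift in the share of a cell type and a shift in RNA per cell cannot be told apart. All 15 NK marker genes had positive differences, with a median of 0.21, and 10 of them lay above vehicle in every library, against 7.68% of all genes, but none passed with either fit. Several of these markers, among them Prf1, Nkg7, Klra8, Klrk1, Tyrobp and Il2rb, were already counted in the lists above. They are therefore not a separate reading. The summed level of the T and NKT cell markers was 676.5 to 841.2 RPKM with TEPP-46, against 627.8 to 711.9 RPKM with vehicle, led by Trbc1, and 0 of 7 tested genes separated the groups. As a share of summed RPKM these markers stood at 0.06143% to 0.07292% with TEPP-46 and at 0.0567% to 0.0614% with vehicle, just without overlap. The helper innate lymphoid cell list summed to 124.6 to 150.7 RPKM with TEPP-46 and 115.3 to 127.3 RPKM with vehicle, and the granulocyte, basophil and mast cell list to 75.65 to 90.6 RPKM with TEPP-46 and 55.67 to 73.49 RPKM with vehicle. That list was led by Kit, a receptor of mast cells and of some NK cells, at 56.8, 67.5 and 57.2 RPKM with TEPP-46 and at 51.1, 48.1 and 46.1 RPKM with vehicle. The only B cell marker analysed was Ighm, at 4.31 to 6.68 RPKM with TEPP-46 and 5.04 to 6.6 RPKM with vehicle. The monocyte, macrophage and dendritic cell list summed to 41.71 to 45.91 RPKM with TEPP-46 and 36.88 to 40.53 RPKM with vehicle, with no overlap. In it Itgax, the integrin chain CD11c, which mouse NK cells also carry, was at 13.2, 11.6 and 16.3 RPKM with TEPP-46 and at 10.4, 9.80 and 9.95 RPKM with vehicle. The part of other cells in the receptor differences was not tested.

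Genes of sterol synthesis were at lower levels with TEPP-46, and none of them passed the test. Of 25 genes of sterol synthesis and uptake tested, 23 had a negative difference, 15 lay below vehicle in every library and 0 above, and the median was -0.23. Of all genes, 7.97% lay below and 7.68% above. In 22 of them all 3 pairs were negative, against 29.1% of all genes. Acat2, which joins acetyl-CoA units at the start of the mevalonate pathway, was at 15.4, 17.3 and 18.0 RPKM with TEPP-46 and at 22.6, 26.4 and 24.0 RPKM with vehicle. Its difference was -0.50 ± 0.08 (adjusted p = 0.344, and 0.0808 with the block).

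Fdft1, the squalene synthase gene that commits the pathway to sterols, was at 23.2, 25.6 and 24.2 RPKM with TEPP-46, against 30.0, 30.8 and 31.1 RPKM with vehicle (-0.32 ± 0.05, adjusted p = 0.344). Mvk, the mevalonate kinase gene, was at 11.9, 12.7 and 13.8 RPKM with TEPP-46 and at 16.2, 16.9 and 16.1 RPKM with vehicle (-0.34 ± 0.07, adjusted p = 0.344). Idi1, an isomerase gene of the pathway, differed by -0.23. Hmgcs1 was chosen after its values were seen, as the only member whose promoter window held the sterol regulatory element TCACNCCAC. That is 1 of 18 members with a window, and 1.24% of all windows held the element. Hmgcs1 was at 117, 151 and 118 RPKM with TEPP-46, against 146, 168 and 143 RPKM with vehicle, and its groups overlapped.

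Of 15 fatty acid genes 11 had a negative difference, 3 lay below vehicle in every library and 0 above, against 7.97% and 7.68% of all genes, and the median was -0.09. Acly, which makes cytosolic acetyl-CoA from citrate, was at 104, 102 and 107 RPKM with TEPP-46 and at 115, 116 and 119.7 RPKM with vehicle. Fasn, the fatty acid synthase gene, was at 93.2, 68.2 and 101 RPKM with TEPP-46, against 101, 106 and 109 RPKM with vehicle, and replicate 2 carried most of its difference. The gene list of the sterol-sensing receptor LXR ran the other way, with a median of 0.20. In it 5 of 6 genes were positive, against 42.9% of all genes, and none passed. The 6 include Nr1h2, which encodes an LXR receptor and is not counted here as a target. Mylip and Nr1h2 lay above vehicle in every library, against 7.68% of all genes, and the other members overlapped. Mylip, an LXR target whose product degrades the LDL receptor, was at 21.8, 23.7 and 21.0 RPKM with TEPP-46 and at 19.2, 19.5 and 17.3 RPKM with vehicle.

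Enzymes that make serine and carry one-carbon units were at lower levels too, and none passed the test. Serine synthesis branches off glycolysis upstream of pyruvate kinase. Of 14 genes of serine, glycine and folate metabolism, 12 had a negative difference, 4 lay below vehicle in every library and 0 above, against 7.97% and 7.68% of all genes, and the median was -0.19. Phgdh, the enzyme that opens the serine pathway, was at 99.7, 98.8 and 120.0 RPKM with TEPP-46, against 122, 129 and 139 RPKM with vehicle. Psat1, its second enzyme, was at 68.1, 70.5 and 73.8 RPKM with TEPP-46 and at 83.4, 80.9 and 88.5 RPKM with vehicle (-0.25 ± 0.06, adjusted p = 0.366). Psph and Mthfd2, the last serine enzyme and a mitochondrial folate enzyme, differed by -0.20 and -0.23. The 4 genes with no overlap were thus the 3 serine synthesis enzymes and Mthfd2.

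Asns had the smallest unpaired p of any gene that was lower with TEPP-46. It was at 21.0, 20.3 and 19.5 RPKM with TEPP-46 and at 28.4, 26.7 and 28.1 RPKM with vehicle, a difference of -0.43 ± 0.05 (adjusted p = 0.266, and 0.0805 with the block). Of 16 genes of the ATF4 amino acid response, 6 lay below vehicle in every library and 1 above, against 7.97% and 7.68% of all genes, and the median was -0.09. Nars, the asparaginyl-tRNA synthetase gene, was at 75.7, 78.2 and 80.3 RPKM with TEPP-46, against 91.2, 91.6 and 98.9 RPKM with vehicle. Slc7a5, a transporter of large neutral amino acids, was at 47.1, 42.1 and 48.5 RPKM with TEPP-46 and at 57.3, 53.3 and 58.5 RPKM with vehicle. Ddit3, the stress factor CHOP, was the member above vehicle in every library, at 14.2, 13.2 and 15.1 RPKM with TEPP-46 and at 12.8, 12.8 and 12.2 RPKM with vehicle.

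Pkm, the gene of the drug's target, did not separate the groups. It was at 1089, 1155 and 1053 RPKM with TEPP-46 and at 1027, 1208 and 1019 RPKM with vehicle. The difference of 0.02 ± 0.09 had an interval of -0.19 to 0.23 (adjusted p = 0.95), and gene-level values do not resolve the PKM1 and PKM2 transcripts. Of 21 glycolysis genes, 4 lay below vehicle in every library and 0 above, against 7.97% and 7.68% of all genes. Their median was -0.05, and 0.01 without vehicle replicate 2. Eno3, the muscle enolase gene, was at 4.62, 5.04 and 6.09 RPKM with TEPP-46, against 6.43, 7.04 and 8.09 RPKM with vehicle, and Pfkm differed by -0.30. Both were under 10 RPKM. The other members below vehicle in every library, Pfkp and Pfkl, were at higher levels. Pfkp had a mean of 111.4 RPKM with TEPP-46 and 124.8 RPKM with vehicle. Pfkl had a mean of 45.7 RPKM with TEPP-46 and 53.01 RPKM with vehicle. They differed by -0.16 and -0.21, and neither passed with either fit. Tricarboxylic acid cycle genes had a median of -0.09 with 6 of 28 below vehicle in every library and 0 above, against 7.97% and 7.68% of all genes. Nuclear-encoded respiratory chain genes had a median of -0.05, with 11 of 72 below and 3 above, beside the same shares of all genes.

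**Figure D4:**
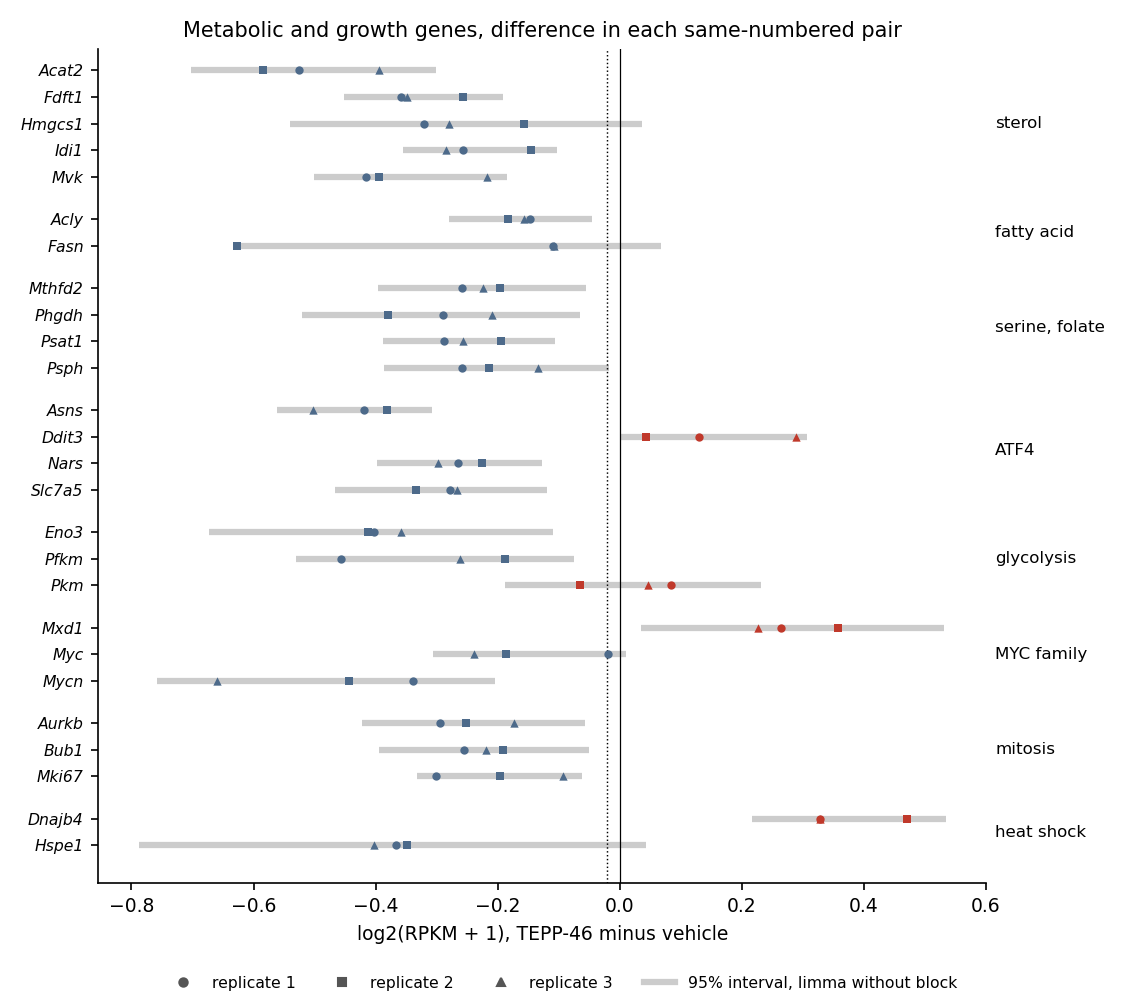
Differences in log2(RPKM + 1), TEPP-46 minus vehicle, in each of the 3 same-numbered pairs (markers) with the 95% interval of the unpaired fit (grey bars); red genes have a positive and blue genes a negative difference, and the dotted line is the median of all genes. Every sterol, serine and ATF4 gene drawn is negative in all 3 pairs except Ddit3, and the pairs of Pkm lie on both sides of 0.

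Many growth and division genes had small negative differences, and none passed. Of 44 genes of the MYC and ribosome biogenesis list, 42 had a negative difference (4 were positive under quantile normalization), 39 were negative in all 3 pairs, with a median of -0.21. Negative differences in all 3 pairs occurred in 29.1% of all genes. Only 3 of the 44 lay below vehicle in every library and 1 above, no more than the 7.97% and 7.68% of all genes. Mycn was at 21.2, 20.6 and 15.8 RPKM with TEPP-46 and at 27.0, 28.4 and 25.6 RPKM with vehicle (-0.48 ± 0.11, adjusted p = 0.366). Myc itself was at 71.2, 64.4 and 67.8 RPKM with TEPP-46, against 72.2, 73.4 and 80.2 RPKM with vehicle. Mxd1, an antagonist of MYC, was higher, at 214, 234 and 185 RPKM with TEPP-46 and at 178, 183 and 158 RPKM with vehicle.

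All 79 cytosolic ribosomal protein genes had negative differences, except under quantile normalization, where 14 were positive, and under median ratio scaling, where 2 were. Their median was -0.11, and -0.06 under quantile normalization, and 34 of the 79 lay below vehicle in every library, against 7.97% of all genes. Rps19 was at 1057, 1028 and 1081 RPKM with TEPP-46, against 1176, 1292 and 1226 RPKM with vehicle (-0.22 ± 0.06, adjusted p = 0.412). Of 39 mitosis and spindle genes, 38 were negative in all 3 pairs and 8 lay below vehicle in every library, against 29.1% and 7.97% of all genes, with a median of -0.17. Mki67, the proliferation marker Ki-67, was at 121, 129 and 132 RPKM with TEPP-46 and at 149.6, 148 and 141 RPKM with vehicle. Aurkb and Bub1, kinases of chromosome segregation, differed by -0.24 and -0.22. DNA replication genes had a median of -0.06, which turned to 0.02 without TEPP-46 replicate 2 and to 0.0025 without vehicle replicate 3. In this list 3 of 40 lay below vehicle in every library, against 7.97% of all genes. Canonical histone genes, whose messages lack a poly(A) tail, had a median of -0.11, which turned to 0.05 without TEPP-46 replicate 3 and to 0.07 without vehicle replicate 2, and 0 of 28 separated the groups.

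Of 16 heat shock genes 14 had a negative difference, with a median of -0.14, and in 13 all 3 pairs were negative, against 29.1% of all genes. In this list 1 gene lay above vehicle in every library and 1 below, near the 7.68% and 7.97% of all genes. Hspe1, the mitochondrial partner of the chaperonin HSP60, was at 179.9, 158 and 219.9 RPKM with TEPP-46 and at 232, 201 and 291 RPKM with vehicle. Its groups overlapped, and its 3 pair differences were -0.37, -0.35 and -0.40. Dnajb4 ran the other way, at 9.94, 11.0 and 10.8 RPKM with TEPP-46, against 7.71, 7.65 and 8.43 RPKM with vehicle.

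**Figure D5:**
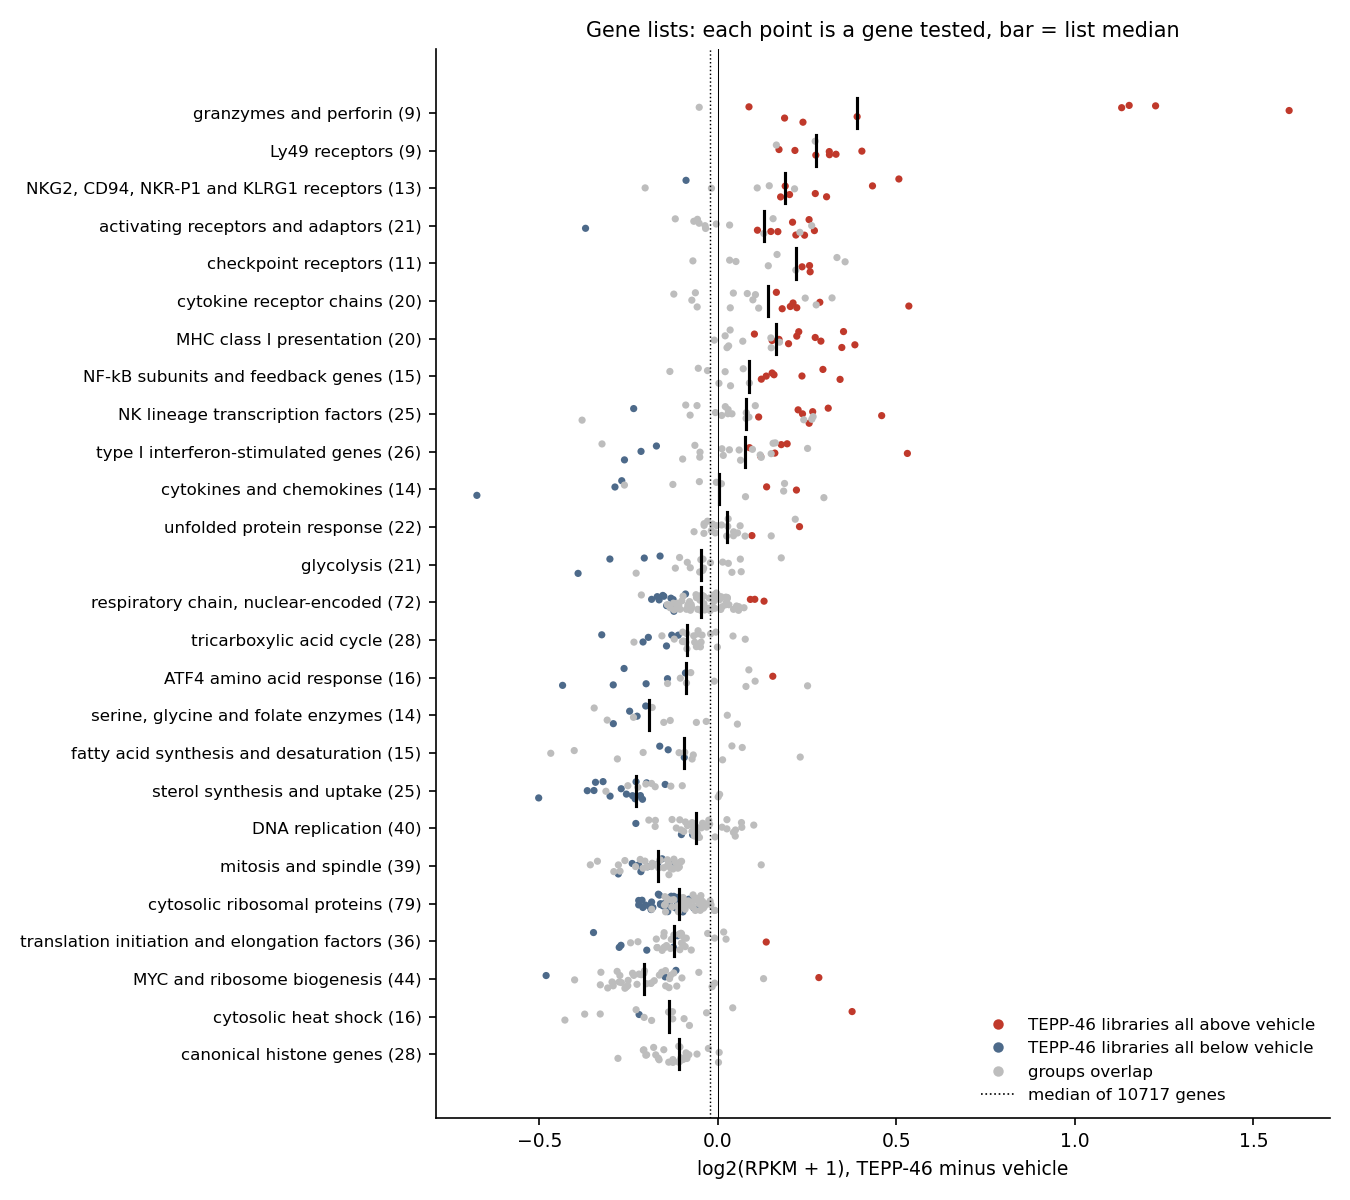
Each point is a tested gene of the named list (number of genes in brackets), placed by its difference in log2(RPKM + 1), TEPP-46 minus vehicle; red points lie above and blue points below vehicle in every library, grey points overlap, black bars are list medians and the dotted line is the median of 10717 genes. Medians run from 0.39 for granzymes and perforin to -0.23 for sterol synthesis and uptake.

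Among other genes taken by size, Suco, Pde4d and Tmsb15a were higher, and Commd9 and Tspan4 lower, each without overlap. Pde4d, a phosphodiesterase that degrades cyclic AMP, was at 10.2, 12.6 and 9.35 RPKM with TEPP-46 and at 6.29, 7.82 and 6.44 RPKM with vehicle. Suco differed by 0.57 and Tmsb15a, a thymosin that binds actin, by 0.78. Commd9 and the tetraspanin gene Tspan4 differed by -0.55 and -0.51. Padi2, an enzyme that converts arginine in proteins to citrulline, was at 163, 158 and 167 RPKM with TEPP-46, against 129, 126 and 124 RPKM with vehicle (0.36 ± 0.05, adjusted p = 0.266). Short non-coding genes had wider differences still. Gm22362 was at 3.89, 0 and 0 RPKM with TEPP-46 and at 17.2, 21.9 and 14.9 RPKM with vehicle, and no fold is given for it.

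Sult2b1 and Avil were called only with the block and were named after that result was seen. Sult2b1, a sulfotransferase of cholesterol, was at 17.3, 27.5 and 12.4 RPKM with TEPP-46 and at 9.36, 14.8 and 7.04 RPKM with vehicle. Avil, an actin-binding protein gene, was at 53.3, 64.7 and 34.7 RPKM with TEPP-46, against 32.6, 39.6 and 22.4 RPKM with vehicle. Both overlapped between the groups, while their pair differences were even, at 0.82, 0.85 and 0.74 for Sult2b1 and at 0.69, 0.69 and 0.61 for Avil. Their adjusted p was 0.0451 with the block and 0.56 without it.

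The authors' deposited table of this comparison lists 24 genes, 11 higher and 13 lower with TEPP-46. Of these, 12 were in the expression table, all of them had the same direction there, and the groups of 11 did not overlap. In the authors' deposited table the ratio was 3.15 for Gzmf, 2.67 for Mt2, 2.21 for Gzme, 2.18 for Gzmd and 2.13 for Mt1. Their lower genes included Tnnt1, the slow skeletal troponin T gene, which was at 2.72, 2.46 and 2.20 RPKM with TEPP-46 and at 3.96, 5.01 and 4.16 RPKM with vehicle. Afp, the alpha-fetoprotein gene, was at 2.61, 2.67 and 2.73 RPKM with TEPP-46, against 4.58, 4.09 and 4.36 RPKM with vehicle. Immp2l, a peptidase gene of the inner mitochondrial membrane, was at 1.95 ± 0.265 RPKM with TEPP-46 and 3.36 ± 0.487 RPKM with vehicle (SD, n = 3 each). That table and the values here come from the same libraries, so the shared direction is not independent.

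The effect of TEPP-46 was set against that of deleting PKM2, the opposite manipulation of the same enzyme. In the libraries labelled PKM2 KO, Pkm was at 76.7 and 78.4 RPKM, against 221, 198 and 199 RPKM in those labelled PKM2 WT. The libraries of that experiment differ in level from the drug experiment, where Pkm was at 1019 to 1208 RPKM, so only the contrast of the 2 effects was tested. Ifng was at 24.2 and 18.8 RPKM in PKM2 KO, against 22.7, 23.4 and 24.2 RPKM in PKM2 WT. With vehicle it was at 1014 to 1083 RPKM, although the labels give the same IL-2 and IL-12 stimulation. The labels may therefore not describe the genotype libraries correctly, which was not tested and limits what the contrast means. The difference of effects, (TEPP-46 minus vehicle) minus (PKM2 KO minus PKM2 WT), passed for 6 of 11142 genes, 5 positive and 1 negative (0.0449% and 0.00898% called), and 6.72% of genes had an unadjusted p under 0.05. They were Slc15a2, Mir6374, Pkm, Cd3g and Pim2, and on the negative side Amica1. Pkm is the gene targeted in PKM2 KO, and its TEPP-46 difference was 0.02. Its difference of effects of 1.42 therefore came from the genotypes and not from the drug.

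Slc15a2, a peptide transporter gene, and Cd3g, a T cell receptor chain gene, differed mainly between the genotypes. Slc15a2 was at 2.21, 2.27 and 2.70 RPKM with TEPP-46 and 1.62, 2.19 and 1.97 RPKM with vehicle, and at 0.10 and 0.08 RPKM in PKM2 KO, against 37.1, 35.9 and 33.0 RPKM in PKM2 WT. Amica1, an adhesion molecule gene, was at 17.8, 16.8 and 14.5 RPKM with TEPP-46 and 19.4, 19.7 and 19.2 RPKM with vehicle, and at 39.9 and 38.0 RPKM in PKM2 KO, against 22.2, 22.1 and 24.4 RPKM in PKM2 WT. Both genes and Cd3g were named after their values were seen.

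Pim2, a pro-survival kinase induced by cytokines, was at 208, 199.9 and 204 RPKM with TEPP-46, against 179, 178 and 173 RPKM with vehicle, and at 27.5 and 24.6 RPKM in PKM2 KO, against 34.0, 34.6 and 33.0 RPKM in PKM2 WT. The difference of its effects was 0.57 ± 0.08 (adjusted p = 0.0462), and with each of the 11 libraries left out in turn it passed in 1 of 11, at an adjusted p between 0.0391 and 0.151. Amica1 passed in 5 of 11 and Cd3g in 3 of 11, while Slc15a2, Mir6374 and Pkm passed in all 11. Gzmd, Gzme and Gzmf had differences of effects of 0.65, 0.73 and 0.89, with adjusted p between 0.595 and 0.666, and Mt1 and Mt2 of 1.45 each, with 0.358 and 0.516. For these genes the 2 effects were not shown to differ, nor shown to be alike.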

How the data were processed

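Splenic NK cell libraries were made with a stranded poly(A) kit per the labels' protocols, while the title and design text name total RNA, and were aligned with STAR to mm10 per the submitters' processing notes. The deposited values are RPKM per gene; no source used here gives their counting. A ratio and a p-value per gene stand in the authors' deposited table of the comparison. The expression table lists 11706 genes, of which 11675 IDs matched GENCODE M21. Of its columns, 11 match samples of the series and 5 match none and were not used; PKM2 KO replicate 3 is not analysed here.

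Computed from these values were log2(RPKM + 1), a limma trend fit (limma 3.58.1, R 4.3.3) of TEPP-46 against vehicle on the 10717 genes averaging 1 RPKM or more, and Benjamini-Hochberg adjusted p-values over all of them. The same fit with the replicate number as a block was run because the comparison was to be read both unpaired and paired. A second limma fit gave the difference between the TEPP-46 and knockout effects over 11142 genes. Exact tests on single genes were not used, since 3 libraries against 3 cannot pass. Read counts could not be recovered from the RPKM steps (24.3% to 35.1% of low values whole within 0.05 reads, against 10% by chance), so depth is unknown and no counting interval is given. Gene positions and promoters are from RefSeq and GENCODE on GRCm38.

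Members and gene lists were chosen with earlier results of these data known. Named genes are Pkm, Ncr1, Ifng, the 10 smallest p-values, the largest separated differences at a mean of at least 5 RPKM, the top of the authors' table, up to 6 members of each list by p, and all granzyme and Ly49 genes. Lists are described by counts and medians, without a set test. Alternatives were other pseudocounts, filters and scalings, protein-coding genes alone, the spread from all libraries, no trend, the block and leaving out each library. The fit was tested on simulated data.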

Additional observations from a re-analysis of the deposited data

How the results depend on the processing

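For TEPP-46 against vehicle, 0 genes passed in the unpaired limma fit with pseudocounts of 0.1 or 5, with no filter, with a mean of at least 5 RPKM, under quantile or median ratio scaling, with the spread from all libraries and without the trend. Protein-coding genes alone gave 3 and the replicate block gave 6. Leaving out each replicate in turn gave 0 to 7, the most without vehicle replicate 1, then 5 without TEPP-46 replicate 1. No source says that a replicate number marks a shared animal or day. Deviations of same-numbered libraries correlated at 0.053, 0.283 and 0.270 over all genes, and at 0.221, 0.695 and 0.691 over protein-coding genes. In these deviations from the group mean every library correlated best with its own number, as a hint from the data. By levels over protein-coding genes, each TEPP-46 library correlated best, among the vehicle libraries, with its own number, at 0.9955, 0.9949 and 0.9951. By levels over all genes, however, TEPP-46 replicate 1 correlated at 0.9738 with vehicle replicate 2 and at 0.973 with vehicle replicate 1. Since 1 pair of deviations also lay under 0.1 over all genes, the pairing is unproven. For the difference between the TEPP-46 and knockout effects, 6 genes passed, against 10 with a pseudocount of 0.1 and 3 to 12 with each replicate left out; 12 passed without PKM2 KO replicate 2, and 3 without PKM2 WT replicate 2 or vehicle replicate 1. The cause was not tested. Leaving out PKM2 KO replicate 3 was not run, as it has no column. Among the single genes named, differences from TEPP-46 against vehicle changed sign only for Gzmk, which ran from -0.127 to 0.0115 with each replicate left out in turn, Pkm, from -0.0206 to 0.102, and Cd3g, from -0.0391 to 0.116. Of 50 list medians, 15 took the other sign under at least 1 alternative. Among them were glycolysis, DNA replication, canonical histones, redox and NRF2 genes, p53 targets and the HIF1 pathway.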

Other observations

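Some further named genes lay above vehicle in every library, though none passed with either fit. Dusp5, a phosphatase of ERK kinases, was at 112, 121 and 103 RPKM with TEPP-46 and at 83.7, 89.5 and 76.4 RPKM with vehicle, a difference of 0.43 ± 0.08 (limma, adjusted p = 0.344, and 0.0701 with the block). Fosl2, an AP-1 subunit, was at 66.6, 64.1 and 58.7 RPKM with TEPP-46, against 50.9, 51.3 and 47.6 RPKM with vehicle. Btg2, an antiproliferative gene and p53 target, was at 46.8, 52.3 and 49.7 RPKM with TEPP-46 and at 38.9, 40.0 and 39.2 RPKM with vehicle. Of 19 p53 targets, Btg2 alone lay above vehicle in every library and 0 below, no more than the 7.68% and 7.97% of all genes. The median of the 19 was -0.04.

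Of 25 redox and NRF2 genes, 4 lay above vehicle in every library and 0 below, against 7.68% and 7.97% of all genes, with a median of -0.02. They included Prdx5 (0.33) and Gpx4 (0.23), which remove peroxides, and Fth1 (0.23), the ferritin heavy chain. Of 22 unfolded protein response genes 2 lay above vehicle in every library, near the 7.68% of all genes, and Hspa5, the chaperone BiP, differed by 0.08 with overlap. Of 18 HIF1 pathway genes 0 did, and Hif1a overlapped at 225.7, 279 and 196 RPKM with TEPP-46, against 188, 204 and 170 RPKM with vehicle. Of 36 translation factors, 33 had a negative difference and 6 lay below vehicle in every library, against 7.97% of all genes, among them Eif6, at 102, 97.1 and 99.0 RPKM with TEPP-46 and 119, 115 and 128 RPKM with vehicle.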
